A study of Mus musculus with 295 samples.

Results

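Within a cross of mice fed one diet, adipose tissue rich in the transcripts of 2 fatty acid synthesis enzymes was compared with adipose tissue poor in them. The mice compared were those whose arrays had a high signal for Eif2s3y, a Y-linked gene for a subunit of a translation initiation factor, and a low signal for Gpx5, a glutathione peroxidase of the epididymis. These were 105 of the 295 mice. They were ranked by a score, the mean of the z-scores of Fasn (fatty acid synthase) and Acaca (acetyl-CoA carboxylase alpha). The 35 mice with the highest scores (the high group) were set against the 35 with the lowest (the low group), and the 35 between them are the middle group. The groups were thus chosen by measured values of 4 genes on these same arrays, not by a treatment. The F2 mice descended from the C57BL/6J and C3H/HeJ strains, all were ApoE null, and all were on a high-fat Western diet between weeks 8 and 24 of life, so the groups share the genotype at Apoe, the diet and the age. The fat depot, the sex and the body weight of each mouse are not in the labels used here. RNA of each mouse was hybridised to 1 array together with a pool made from every mouse's RNA in the other dye, and values below are log2 ratios of mouse over pool. No array repeats a mouse, so each p-value measures the spread between mice.

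De novo lipogenesis turns surplus carbohydrate into fat. Citrate leaves the mitochondrion and is split to acetyl-CoA by ATP citrate lyase, acetyl-CoA carboxylase makes malonyl-CoA from it, and fatty acid synthase joins the units to palmitate with NADPH as the reductant. The product is then elongated, desaturated and esterified to triglyceride. In fat and liver the program is driven by the transcription factors SREBP-1c (gene Srebf1) and ChREBP (gene Mlxipl), which respond to insulin and to glucose, and in obese adipose tissue its transcripts are known to be low where macrophages are many.

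The values of the genes the mice were selected on are a description only. Fasn ran from -0.41 to 1.51 in the high group, with a median of 0.23, and from -1.77 to -0.52 in the low group, with a median of -0.95, and the middle group had a median of -0.17. The groups did not overlap for Fasn, and their means lay 1.27 apart, or 2.41-fold. The Acaca probe of the score ran from -0.40 to 0.56 in the high group (median -0.07) and from -1.32 to -0.14 in the low group (median -0.92), 0.85 apart in the mean, with overlap. Across the kept mice Fasn and Acaca correlated at r = 0.76, a description since both come from one array per mouse. Acaca had 2 other probes, which did not follow the one in the score: their means differed by -0.11 and 0.01 between the groups. The lowest score in the high group, 0.544, lay next to the highest of the middle group, 0.542, and the highest score of the low group was -0.48 against -0.39 for its neighbour. For Eif2s3y the nearest arrays on either side of the cutoff of -1.99 lay at -0.10 and -4.16, and for Gpx5 those around the cutoff of -1.66 lay at -4.28 and 0.24. One array without an Acaca value was scored by Fasn alone and fell in the high group.

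Differences between the groups were widespread and mostly small. Of 11507 genes, each taken by 1 probe, 2342 were higher in the high group (20.4% of those tested) and 1759 were lower (15.3%) at a limma adjusted p under 0.05, and over probes the counts were 4237 higher (18.4%) and 3399 lower (14.8%) of 23003. With each array's median subtracted the split turned, to 3306 probes higher and 4022 lower, so that the share of calls that were higher fell from 55.5% to 45.1%. The median size of a called difference was 0.25 in log2, and only 7 genes were over 2-fold higher and 54 over 2-fold lower. In no gene tested did the 2 groups separate without overlap (0 of 11507). Counts in the gene lists below stand against these backgrounds, and the median difference over all genes was 0.02.

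**Figure D1:**
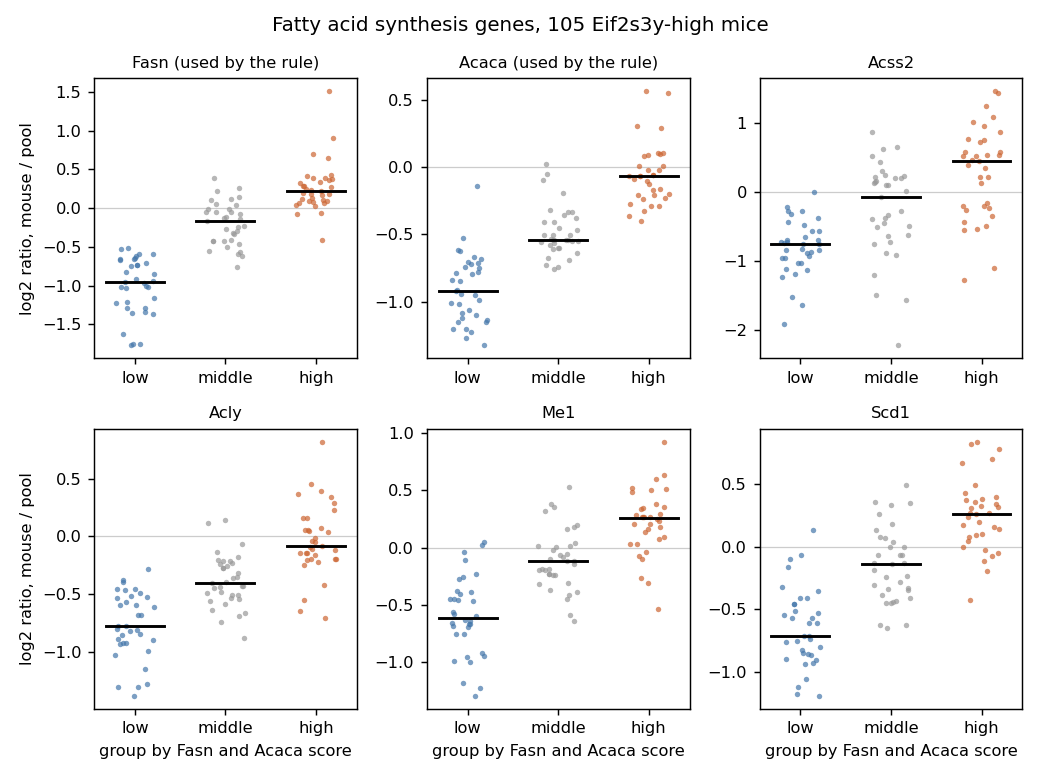
Log2 ratio of mouse over pool (vertical axis) of 6 fatty acid synthesis genes in the low, middle and high group by score (horizontal axis); each point is 1 mouse and each bar the median of a group. Fasn and Acaca chose the groups; Acss2, Acly, Me1 and Scd1 did not, and their middle group lies between the outer ones, with medians of -0.07, -0.40, -0.12 and -0.14.

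Genes that feed carbon to fatty acid synthase rose with the score. Of 12 measured partners of de novo synthesis, Fasn and Acaca not among them, 8 were higher in the high group and 0 lower, with a median difference of 0.53. Here and below, a list with 0 members called in 1 direction had at most 2 there at an unadjusted p under 0.05. Acss2, which makes acetyl-CoA from acetate, ran from -1.28 to 1.47 in the high group (median 0.45) and from -1.91 to 0.00 in the low group (median -0.75). Its groups overlapped, but 23 of 35 high mice lay above every low mouse, and the mean difference was 1.09 ± 0.13 (SE; adjusted p = 4.41e-10), or 2.13-fold. Acly, the ATP citrate lyase, ran from -0.70 to 0.82 in the high group (median -0.08) and from -1.38 to -0.29 in the low group (median -0.78). All 35 high mice exceeded the low median of Acly, 31 exceeded every low mouse, and the difference was 0.74 ± 0.07 (adjusted p = 6.52e-13). Slc25a1, the mitochondrial citrate carrier, was 0.62 ± 0.07 higher (adjusted p = 1.04e-10), and Acacb, the carboxylase isoform tied to the control of fatty acid oxidation, 0.45 ± 0.09 (adjusted p = 1.47e-05).

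Thrsp, the Spot 14 gene that tracks lipogenesis in fat and liver, had the second largest rise among the genes tested, which leave out Fasn and Acaca. Its log2 ratio ran from -1.75 to 1.67 in the high group (median 0.11) and from -2.98 to -0.04 in the low group (median -0.92). The ranges overlapped, with 31 of 35 high mice above the low median, and the difference was 1.19 ± 0.19 (adjusted p = 6.7e-07). It was 0.59 and missed the threshold (adjusted p = 0.063) once the macrophage score described below entered the fit. Both master regulators rose: Srebf1 by 0.62 ± 0.09 (adjusted p = 7.93e-08) and Mlxipl by 0.61 ± 0.07 (adjusted p = 3.55e-10), as did Nr1h3, the liver X receptor alpha, by 0.36 ± 0.05. The ubiquitous partners of these factors had differences near 0 and did not pass the test, with Mlx at -0.03, the SREBP escort Scap at 0.06, Usf1 at -0.09 and Usf2 at -0.03.

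The NADPH and chain-finishing steps moved through single members. Me1, the cytosolic malic enzyme that yields NADPH, ran from -0.54 to 0.92 in the high group (median 0.26) and from -1.29 to 0.05 in the low group (median -0.62), a difference of 0.81 ± 0.08 (adjusted p = 3.19e-13), with all 34 high mice that had a value above the low median. The pentose phosphate gene Rpia rose by 0.15, and Tkt (-0.11) and Idh1 (0.12) did not pass the test. This leaves 2 of the 4 tested genes of the NADPH supply list higher. Rpia and Tkt act in the pentose phosphate pathway without making NADPH themselves. The NADPH-yielding genes G6pdx, Pgd and H6pd of the list were not tested. Of 8 elongases, desaturases and related genes 3 were higher and 1 lower, with a median of 0.05. Those 3 were Scd1, the stearoyl-CoA desaturase (0.90 ± 0.07; adjusted p = 2.25e-15), Elovl6, which elongates palmitate (0.88 ± 0.13; adjusted p = 1.53e-07), and Fads3 (0.81 ± 0.08; adjusted p = 7.58e-12), and the lower one was Elovl1, at -0.16. Scd1 ran from -0.42 to 0.84 in the high group (median 0.27) and from -1.19 to 0.13 in the low group (median -0.71). The polyunsaturated desaturases Fads1 (-0.02) and Fads2 (0.12) and the elongase Elovl3 (-0.02) did not pass.

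The 250 bases before the transcription start are printed for Fasn and for the 4 genes of these lists with the largest rises that had an entry, which rose together with the regulators Srebf1 and Mlxipl. They are from RefSeq, build GRCm38.p6, on the coding strand, and capitals mark CCAAT (the NF-Y box) and GGGCGG (the Sp1 box) on either strand, some of which overlap or abut. The windows are chr11:120824548-120824797 (minus) for Fasn, chr7:97417551-97417800 (minus) for Thrsp, chr2:155517793-155518042 (plus) for Acss2, chr3:129532136-129532385 (plus) for Elovl6 and chr9:86695915-86696164 (minus) for Me1, the first of 2 entries of that gene.
Fasn: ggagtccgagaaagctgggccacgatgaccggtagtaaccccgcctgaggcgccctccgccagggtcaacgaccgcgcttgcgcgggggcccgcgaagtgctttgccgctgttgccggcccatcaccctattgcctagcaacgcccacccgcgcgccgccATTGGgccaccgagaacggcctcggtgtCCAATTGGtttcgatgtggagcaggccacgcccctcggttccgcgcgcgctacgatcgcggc
Thrsp: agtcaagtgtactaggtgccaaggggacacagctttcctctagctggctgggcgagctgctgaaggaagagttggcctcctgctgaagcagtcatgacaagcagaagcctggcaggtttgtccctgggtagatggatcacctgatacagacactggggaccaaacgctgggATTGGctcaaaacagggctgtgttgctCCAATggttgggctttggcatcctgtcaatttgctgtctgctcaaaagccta
Acss2: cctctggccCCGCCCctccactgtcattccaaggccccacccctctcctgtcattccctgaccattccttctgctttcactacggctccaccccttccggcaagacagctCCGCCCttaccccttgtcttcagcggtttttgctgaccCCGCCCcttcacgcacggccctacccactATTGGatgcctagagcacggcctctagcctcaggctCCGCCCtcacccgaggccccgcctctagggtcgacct
Elovl6: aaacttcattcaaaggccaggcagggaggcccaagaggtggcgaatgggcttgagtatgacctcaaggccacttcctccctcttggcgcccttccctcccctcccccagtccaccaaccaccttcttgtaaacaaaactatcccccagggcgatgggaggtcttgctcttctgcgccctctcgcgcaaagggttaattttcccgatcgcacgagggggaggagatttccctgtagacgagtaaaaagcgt
Me1: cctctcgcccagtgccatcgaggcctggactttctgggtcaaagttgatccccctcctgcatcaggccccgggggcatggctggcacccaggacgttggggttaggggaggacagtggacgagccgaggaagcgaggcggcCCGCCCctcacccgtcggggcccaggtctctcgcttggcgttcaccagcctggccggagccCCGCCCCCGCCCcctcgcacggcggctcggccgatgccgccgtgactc
Fasn held 3 matches to CCAAT, Thrsp 2 and Acss2 1, while GGGCGG matched 4 times in Acss2 and 3 times in Me1. The sterol regulatory element searched as TCACNCCAC and the E-box CACGTG had no match in the 5 windows. Over all 27025 promoters of the table, 34.5% held CCAAT, 32.9% GGGCGG, 6.05% CACGTG and 1.04% TCACNCCAC. Of the 11507 genes tested, 8588 had a promoter in the table, and among these the shares were 35.5%, 50.5%, 7.73% and 1.07%. Among 1747 of the genes higher in the high group they were 35.8%, 58.1%, 7.67% and 1.14%, and among 1319 of the lower ones 34.0%, 53.4%, 9.02% and 1.06%. A match is a run of letters, not a site.

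Triglyceride assembly and storage rose with synthesis. Of 9 assembly genes 6 were higher and 2 lower (median 0.61). Lpin1, the phosphatidate phosphatase, ran from -0.25 to 0.96 in the high group (median 0.17) and from -1.19 to 0.32 in the low group (median -0.57), and 29 of 35 low mice lay below every high mouse. Its difference was 0.81 ± 0.08 (adjusted p = 4.25e-13). Of the acyltransferases, Gpat4 rose by 0.73, Agpat2 by 0.61, Dgat2 by 0.71 and Dgat1 by 0.69, whereas Agpat1 (0.02) did not pass. Lpin2 (-0.14) and Acsl4 (-0.39), an acyl-CoA synthetase that prefers arachidonate, fell. All 6 of the lipid droplet and lipolysis genes that could be tested were higher (median 0.63), among them Plin1, the coat protein of the droplet (0.71 ± 0.07), Pnpla3 (0.91 ± 0.11), G0s2, an inhibitor of adipose triglyceride lipase (0.76 ± 0.09), its coactivator Abhd5 (0.34) and the glycerol channel Aqp7 (0.43). The list named 20 genes, and Fabp4, Lpl, Lipe and Cd36 were among the 14 not tested. Among the largest rises of all genes, Pck1, which supplies glycerol 3-phosphate in fat, was 0.98 ± 0.16 higher (adjusted p = 1.48e-06).

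Transcripts of 2 glucose transporters moved in opposite directions. Slc2a4, the insulin-responsive carrier GLUT4, ran from -1.08 to 0.88 in the high group (median -0.23) and from -1.81 to 0.06 in the low group (median -1.16). Every high mouse exceeded the low median of Slc2a4, 21 of 35 low mice lay below every high one, and the difference was 0.95 ± 0.11 (adjusted p = 4.45e-10). Slc2a1, the widely expressed carrier GLUT1, was lower by contrast, at -0.58 ± 0.09 (adjusted p = 8.37e-07). Of 12 glucose and insulin genes 7 rose and 2 fell (median 0.23). Irs2 (0.65), Foxo1 (0.51), Irs1 (0.29), Akt2 (0.19) and the caveolar genes Cav1 (0.40) and Cavin1 (0.27) were higher, Akt1 was lower (-0.24), and the receptor gene Insr (0.00) and the adaptor genes Grb10 (0.02) and Grb14 (0.04) did not pass.

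Glycolysis showed no common direction, with 4 of 13 genes higher, 2 lower and a median of -0.04. Hexokinase 2 (Hk2, 0.54), the liver phosphofructokinase Pfkl (0.36), Aldoa (0.32) and Ldhb (0.35) rose, while Pfkm and Pkm both stood at -0.33. Of the 6 other probes of Pkm, 4 had its sign, so that its direction is uncertain. In a list of pyruvate entry and the citric acid cycle together, 7 of 12 genes rose and 0 fell (median 0.20). Pcx, pyruvate carboxylase, ran from -0.22 to 1.01 in the high group (median 0.20) and from -1.39 to 0.11 in the low group (median -0.52). Its difference of 0.84 ± 0.08 (adjusted p = 1.45e-13) left 31 of 35 low mice below every high mouse. Mpc1, a subunit of the mitochondrial pyruvate carrier, was 0.31 higher, but Pdha1 of pyruvate dehydrogenase (0.04) and citrate synthase (Cs, -0.18) did not pass. Most of the other genes that rose belong to the citric acid cycle.

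Catabolic and sterol pathways were higher as well. Of 11 genes for the breakdown of branched-chain amino acids, a carbon source for lipogenesis in adipocytes, 10 rose and 0 fell (median 0.39), led by Aldh6a1 (0.64 ± 0.10) and Hibch (0.56 ± 0.08), and the kinase Bckdk alone did not pass (0.03). Of 13 fatty acid oxidation genes 10 rose and 0 fell (median 0.35), from Ehhadh of the peroxisome (0.71 ± 0.11) to Acadvl (0.20), but Cpt1a, which admits fatty acids to the mitochondrion, did not pass (-0.14). Cholesterol synthesis had 8 of 15 genes higher and 0 lower (median 0.20), with Lss (0.55 ± 0.08), Sc5d (0.48), Fdps (0.44) and Nsdhl (0.40) in front, and neither Sqle (-0.04) nor the regulator Srebf2 (-0.21) passed. In oxidative phosphorylation 4 of 7 genes were higher by 0.15 to 0.30. The thermogenic list had 3 of 13 higher and 1 lower: Cox8b, Cox7a1 and Kcnk3 rose, Dio2, the deiodinase, fell by 0.62, and Ucp1 (-0.89) did not pass.

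**Figure D2:**
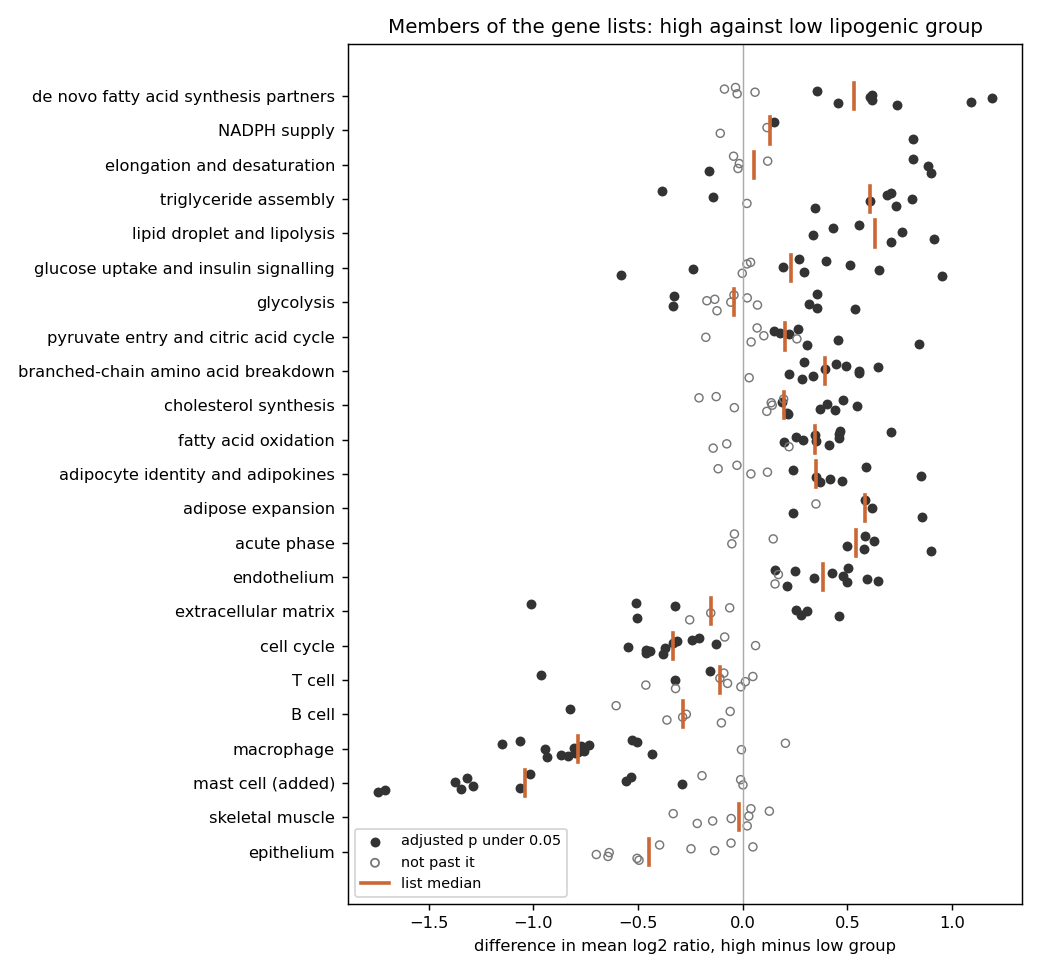
Difference in mean log2 ratio between the high and the low group (horizontal axis, high minus low) for every measured member of 23 gene lists (vertical axis); filled points passed an adjusted p of 0.05, open points did not, and vertical bars are list medians. Medians of the synthesis partners, triglyceride assembly and lipid droplet lists lie to the right of 0 (0.53, 0.61 and 0.63). Those of NADPH supply and of elongation and desaturation are 0.13 and 0.05. Macrophage and mast cell lists lie to the left (-0.79 and -1.04).

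Adipocyte genes were mostly higher. Of 11 identity genes and adipokines 7 rose and 0 fell (median 0.35), including the master regulator Pparg (0.42 ± 0.06), Cebpa (0.35 ± 0.07), the growth hormone receptor Ghr (0.59), Car3 (0.85), resistin (Retn, 0.37) and Lep. The list named 16 genes, and Adipoq, Cfd, Cebpb, Rbp4 and Rarres2 were not tested. Of 5 genes of adipose expansion 4 rose (median 0.58). Mest, an imprinted gene known to mark fat expansion, ran from -0.99 to 1.39 in the high group (median 0.24) and from -1.79 to 0.44 in the low group (median -0.55). The groups overlapped, 34 of 35 high mice lay above the low median, and the difference was 0.85 ± 0.12 (adjusted p = 1.41e-08). Npr3, the natriuretic peptide clearance receptor, rose by 0.62, Nnat by 0.58 and Sfrp5 by 0.24. In pieces of whole fat, fewer cells of a type and less RNA per cell cannot be told apart.

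Leptin (Lep), the adipocyte hormone that reports fat mass, ran from -0.86 to 1.27 in the high group (median 0.43) and from -0.92 to 0.66 in the low group (median -0.07). The ranges overlapped over most of their length, 28 of 35 high mice exceeded the low median, and the difference was 0.47 ± 0.10 (adjusted p = 0.000151). Apoe, disrupted in all of these mice, was 0.26 ± 0.09 higher (adjusted p = 0.0274); the labels do not say which part of the transcript its probe reads, and the call was lost with array medians subtracted.

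Acute phase genes rose too, with 5 of 8 higher, 0 lower and a median of 0.54. Orm1 (0.90 ± 0.12; adjusted p = 5.17e-09) and Orm2 (0.58) code for orosomucoids, near-identical paralogues that an array may not separate, and Steap4 (0.63), Serpina3n (0.59) and Saa3 (0.50) made up the rest. Endothelial genes were higher in 10 of 12 cases and lower in 0 (median 0.38), among them the receptors of vascular endothelial growth factor Kdr (0.64) and Flt1 (0.59 ± 0.07; adjusted p = 6.39e-11), Cldn5 (0.50) and Esam (0.50). Of 11 extracellular matrix genes 4 rose and 4 fell: the basement membrane and microfibrillar collagens Col4a1 (0.46), Col6a1 (0.31) and Col6a2 (0.25) and the fibrillar Col5a1 (0.28) rose, while Timp1 (-1.01), Postn (-0.51), Loxl1 (-0.33) and Col1a2 (-0.51) fell. A second probe of Col1a2 was called in the opposite direction, so its direction is uncertain. With the macrophage score described below as a covariate 6 of the 11 were higher and 0 lower.

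Macrophage genes were lower in the high group. Of 17 markers 15 fell and 0 rose, with a median of -0.79. Msr1, the class A scavenger receptor, ran from -1.80 to 0.87 in the high group (median 0.26) and from 0.14 to 2.24 in the low group (median 1.16), with the middle group at 0.71. No high mouse reached the low median, and the difference was -1.06 ± 0.14 (adjusted p = 3.56e-09), a 2.09-fold lower ratio. Adgre1, a surface antigen used to recognise mouse macrophages, was lower by 0.93 ± 0.14, Cd68 by 0.84, and Mmp12, the macrophage elastase, by 1.15, and the crown-structure marker Itgax stood at -0.73. Ctss (-0.01) and Ccr2 (0.20) were the markers that did not pass. The mean over the list ran from -1.45 to 0.49 in the high group (median 0.06) and from -0.39 to 1.07 in the low group (median 0.69), so the groups overlapped. A ratio to a pool of the same tissue has no zero, and absence of these cells cannot be read from it.

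The macrophage list moved with the score, and the fit was therefore repeated with its mean z-score on each array as a covariate. Calls fell to 1061 genes higher (9.22%) and 579 lower (5.03%), and to 1980 probes higher (8.61%) and 1252 lower (5.44%). Of the synthesis partners 6 of 12 were then higher, of triglyceride assembly 6 of 9, of droplet genes 4 of 6, of acute phase genes 5 of 8 and of cholesterol genes 10 of 15. Acss2 (1.21), Elovl6 (1.11), Acly (0.83), Me1 (0.83) and Scd1 (0.65) were called, with adjusted p of 5.7e-07, 4.4e-06, 1e-09, 1.6e-08 and 4.8e-08 in turn. Other lists thinned: branched-chain breakdown to 1 of 11 higher, fatty acid oxidation to 3 of 13, pyruvate and citric acid cycle genes to 2 of 12, glucose and insulin genes to 4 of 12, adipocyte genes to 4 of 11 and endothelium to 6 of 12. Slc2a4 stood at 0.42 (adjusted p = 0.0064), Pck1 at 0.21 and Car3 at 0.19, the last 2 no longer past the threshold. Nor were Acacb (0.12), Irs1 (0.13), Aldh6a1 (0.23), Hibch (0.17), Ehhadh (0.31), Cebpa (0.26), Nnat (-0.05), Sfrp5 (0.12), Kdr (0.20), Timp1 (-0.06) and Apoe (0.06), which had been called without the covariate.

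Mast cell genes fell as well, and they were looked at because 4 of the 12 largest falls were theirs. These were Cma1 (mast cell chymase), Cpa3 (mast cell carboxypeptidase), Fcer1a (a chain of the high-affinity IgE receptor) and Tpsab1 (tryptase). Cma1 ran from -1.99 to 1.46 in the high group (median -0.80) and from -1.73 to 3.08 in the low group (median 0.87). The ranges overlapped, 13 of 35 low mice lay above every high mouse, and the difference was -1.74 ± 0.25 (adjusted p = 7.4e-08), or 3.34-fold lower. Cpa3 ran from -1.96 to 1.27 in the high group (median -0.76) and from -1.61 to 2.93 in the low group (median 0.99), lower by 1.71 ± 0.24 (adjusted p = 3.44e-08). Mcpt4 was lower by 1.29 ± 0.18, Tph1, which makes the serotonin of mast cells, by 1.32 ± 0.20, and Tpsb2 by 1.06 ± 0.16. A list of 17 mast cell genes was drawn up after these values were seen, and 14 of them could be tested. Of these 14, 11 were lower and 0 higher (median -1.04), and Mcpt1 (0.00), Kit (-0.01) and Gata2 (-0.19) did not pass. With the macrophage score as a covariate 7 of the 14 were lower, with Cma1 at -0.91 (adjusted p = 0.029), and Tpsab1 (-0.75) and Fcer1a (-0.70) missed the threshold. These 7 include Gata2 (-0.82, adjusted p = 0.014), which had not passed without the covariate. Tpsab1 and Tpsb2 are near-identical copies, as are several chymases, and their probes may share signal.

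**Figure D3:**
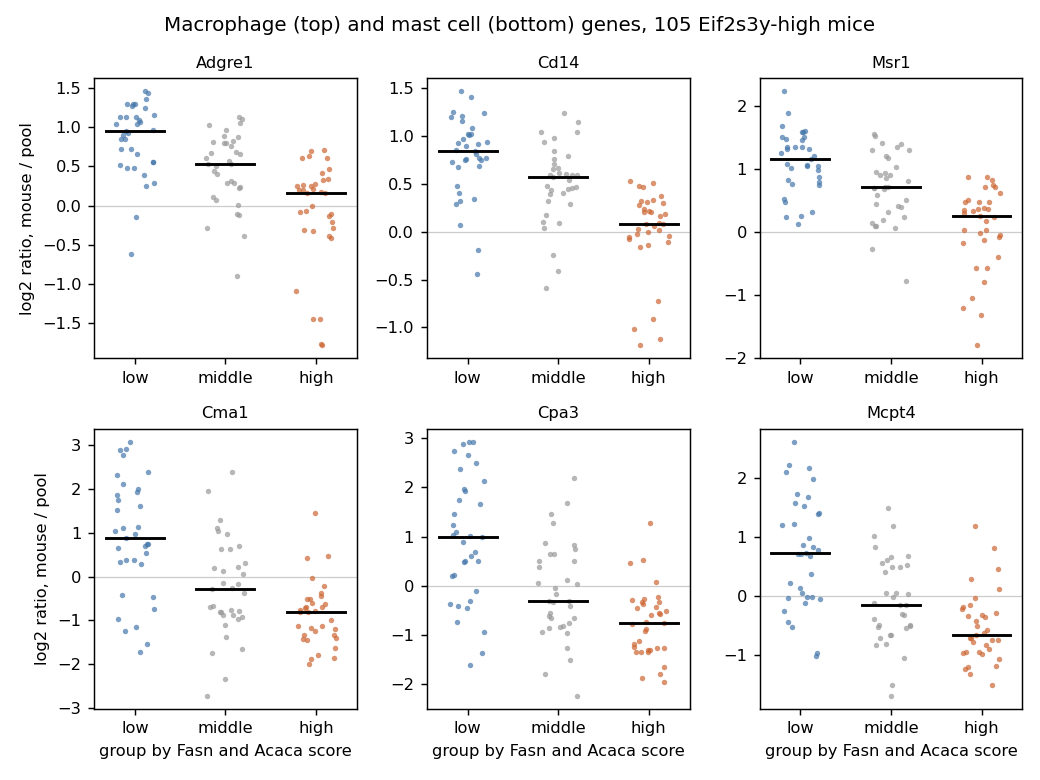
Log2 ratio of mouse over pool (vertical axis) of 3 macrophage genes (Adgre1, Cd14, Msr1, top row) and 3 mast cell genes (Cma1, Cpa3, Mcpt4, bottom row) in the low, middle and high group by score (horizontal axis); points are mice and bars medians. Medians step down from the low to the high group, from 1.16 to 0.26 for Msr1 and from 0.87 to -0.80 for Cma1.

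The steepest fall of all was in Serpinb9b, an intracellular serine protease inhibitor of the granzyme B inhibitor family. It ran from -2.10 to 0.69 in the high group (median -0.81) and from -1.27 to 4.49 in the low group (median 1.64). All 35 high mice lay under the low median of Serpinb9b, 24 low mice lay above every high mouse, and the difference was -2.20 ± 0.27 (adjusted p = 1.12e-09), 4.59-fold lower. Clec4d, a C-type lectin of macrophages, was lower by 1.94 ± 0.22, Hc, which encodes complement component C5, by 1.80 ± 0.24, the ubiquitin ligase gene Rnf128 by 1.62 ± 0.17 and the leukocyte receptor Lilr4b by 1.41 ± 0.16. Thbs4, a matrix thrombospondin, stood at -1.75 ± 0.26, Hmox1, the heme oxygenase, at -1.37 ± 0.34 (adjusted p = 0.000846), and Cxadr, the coxsackie and adenovirus receptor, at -1.36 ± 0.36 (adjusted p = 0.002). Rnf128 separated best among these, with 28 of 35 low mice above every high mouse. With the macrophage covariate Serpinb9b stood at -1.10 (adjusted p = 0.0063), and Thbs4 (-0.71), Hmox1 (-0.29) and Cxadr (-0.60) did not pass.

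Lymphocyte markers were called in part. Of 11 T cell genes 3 were lower and 0 higher, which were Il7r (-0.96), Cd8a (-0.32) and Cd6 (-0.16), whereas Cd3e (-0.01), Cd4 (0.01) and Cd3g (-0.46) did not pass. Of 7 B cell genes Cd22 alone was lower (-0.83), and it stood at 0.06 with the macrophage covariate. Cell cycle genes were lower in 11 of 13 cases and higher in 0 (median -0.33), such as Birc5 (-0.55), Top2a (-0.46) and Ccnb2 (-0.46). With the macrophage covariate limma called 0 of the 13 in either direction, and 0 reached an unadjusted p under 0.05. Of 10 genes of the unfolded protein response 5 were lower without the covariate and 0 with it (3 at an unadjusted p under 0.05), and of 13 immediate early genes 5 and 0 (0 unadjusted), with Egr2 moving from -1.05 to 0.03 and Atf3 from -0.98 to -0.09. Among 14 interferon genes 5 were lower, and Mx1 alone was higher, by 0.85 ± 0.08 (adjusted p = 1.86e-12), unlike Mx2 (0.05) and Isg15 (-0.12).

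Several of the largest rises belong to no pathway named above. Cyp2e1, an ethanol- and acetone-oxidising cytochrome known from liver and fat, ran from -3.08 to 3.02 in the high group (median -1.41) and from -3.92 to 1.35 in the low group (median -2.88), a difference of 1.46 ± 0.28 (adjusted p = 2.23e-05) and the largest rise. The ranges overlapped widely, and among the 16 mice of the high and low groups with a lower Eif2s3y ratio (at most 0.5; 8 on each side) its difference was 0.02. Of the 8 measured liver genes, Cyp2e1 among them, 2 were higher and 1 lower: Apoa1 was 0.14 higher, Ahsg was lower (-0.61), and Fgg (0.24), Serpina1c (0.22), Ttr (0.03), Apoa2 (0.00) and Apob (0.00) did not pass. Dct, dopachrome tautomerase of pigment synthesis, ran from 0.02 to 1.48 in the high group (median 0.73) and from -1.05 to 0.90 in the low group (median -0.24). Every high mouse lay above the low median of Dct, and the difference was 0.97 ± 0.09 (adjusted p = 1.44e-13). Timp4, an inhibitor of metalloproteinases, was 0.96 ± 0.15 higher and the Wnt inhibitor Apcdd1 1.05 ± 0.15. Cdsn, which encodes corneodesmosin of the skin, was 1.09 ± 0.27 higher (adjusted p = 0.000916), and the scaffold gene Cnksr1 0.95 ± 0.27 (adjusted p = 0.00459). Medians of the opsin gene Opn3 were -0.02 in the high and -1.14 in the low group (adjusted p = 9.47e-09), and those of the sulfotransferase gene Chst1 0.07 and -0.87 (adjusted p = 6.61e-09). With the macrophage covariate Dct was 0.82 higher, and Cyp2e1 (0.14), Cnksr1 (0.30), Timp4 (0.22), Apcdd1 (0.28) and Chst1 (0.28) did not pass.

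No gene was called in 5 marker lists of neighbouring tissues. Skeletal muscle, exocrine pancreas, epididymis, mesothelium and epithelium had 0 members called by limma, out of 8, 5, 9, 4 and 10, and 1 muscle and 1 epithelial gene at an unadjusted p under 0.05. The epididymis count was shaped by the selection, which kept only arrays low in Gpx5, a member of that list. Even so, 24 of the 105 arrays stood apart in a marker list of muscle, pancreas, liver, B cells or epithelium. Without those 24 arrays, 28 high and 25 low mice gave 3854 probes higher and 3104 lower. With the macrophage covariate 7 of 10 epithelial genes were lower (list median -1.28), for example Krt18 at -1.70 against -0.64 without it. Of the 2 probes of Cdh1 in that list the second was called in the opposite direction.

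The labels give no hybridisation date, and the mouse numbers were split into 3 equal runs instead, which are not known to be batches. Within the numbers 30 to 183, 184 to 273 and 274 to 354 these runs held 14 high and 9 low, 7 high and 15 low, and 14 high and 11 low mice. Called probes numbered 2040 higher and 2166 lower, 1127 and 643, and 1510 and 677. Of the 139 named genes called over all mice, 138 had the same sign in all 3 of these runs, the exception being Rhd, and 137 had it in the 16 mice of lower Eif2s3y ratio, the exceptions being Elovl1 and Bhlhe40. These runs and the 16 mice are parts of the same mice on which the genes were called. Agreement in sign was thus favoured in advance and is not an independent check. Acss2 differed by 0.80, 1.29 and 1.27 in the 3 runs, Scd1 by 1.09, 0.99 and 0.73, Msr1 by -1.43, -0.84 and -0.81, and Cma1 by -1.94, -1.99 and -1.19.

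**Figure D4:**
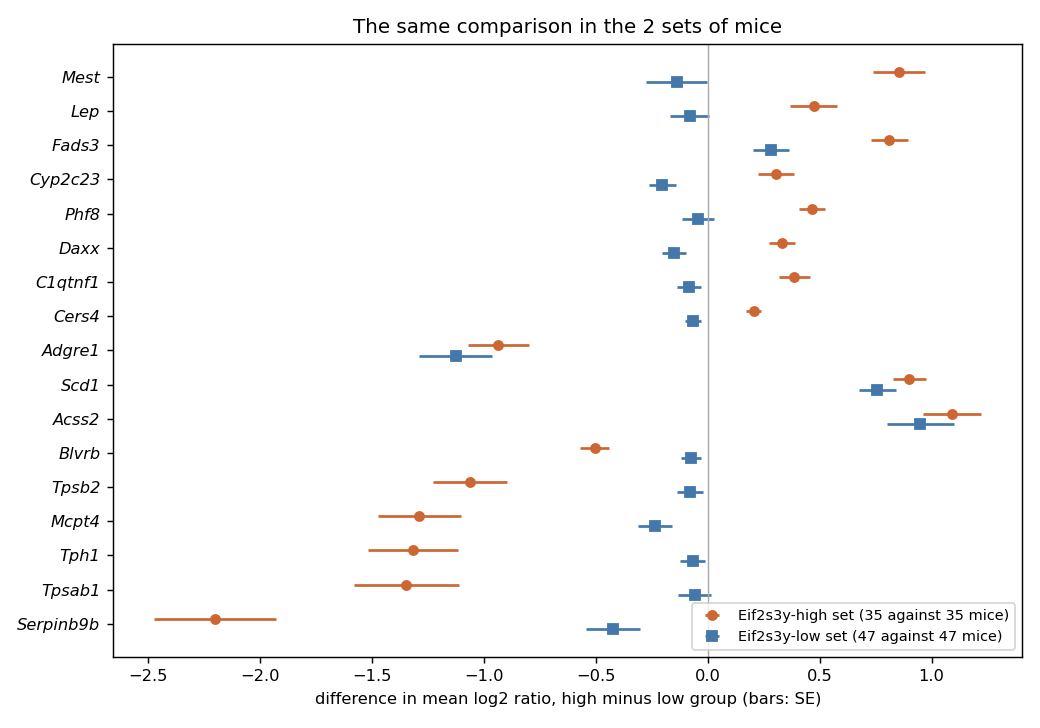
Difference in mean log2 ratio between the high and the low group (horizontal axis, high minus low, bars ± SE) in the Eif2s3y-high mice (circles, 35 against 35) and in the Eif2s3y-low mice (squares, 47 against 47) for 17 genes (vertical axis), sorted by the difference between the sets. Tpsab1 stands at -1.35 and -0.06 and Mest at 0.85 and -0.14, whereas Scd1 stands at 0.90 and 0.76.

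The same split was made among the 142 Eif2s3y-low mice, which share no mouse with the set above, and the difference between the sets was tested as an interaction. For 22990 probes, 180 (0.783%) had a more positive difference in the Eif2s3y-high set and 125 (0.544%) a more negative one at an adjusted p under 0.05, and with the score as a continuous regressor over all mice of each set these were 323 and 273. Over genes these were 94 (0.817%) and 82 (0.713%) of 11501. The set of Eif2s3y-low mice had 1359 genes higher (11.8%) and 1143 lower (9.94%) on its own. None of the synthesis partners, NADPH, triglyceride, droplet or macrophage genes passed the interaction test: Acss2 differed by 0.95 in the Eif2s3y-low mice, Acly by 0.85 and Adgre1 by -1.13. Scd1 and Slc2a4, from other lists, differed by 0.76 and 0.85 there and did not pass it either. A p that misses the threshold does not show that the sets are alike. Fads3 was the member of the lipid lists that did pass, with 0.81 in the Eif2s3y-high set and 0.28 in the other (interaction 0.53 ± 0.12; adjusted p = 0.00484).

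Mast cell genes differed between the sets. In the Eif2s3y-low mice Tpsab1 ran from -1.56 to 0.19 in the high group (median -0.73) and from -1.57 to 0.21 in the low group (median -0.71), against medians of -0.55 and 0.60 in the Eif2s3y-high mice, whose low group reached 3.84. So in the Eif2s3y-low mice neither group held the high values seen in the low group of the Eif2s3y-high mice. The interaction was -1.29 ± 0.22 (adjusted p = 9.01e-05). For Tph1 it was -1.25 ± 0.19 (adjusted p = 3.92e-06), for Cpa3 -1.46 ± 0.26 (adjusted p = 0.000158) and for Cma1 -1.48 ± 0.27 (adjusted p = 0.000267). Of the 14 mast cell genes 9 passed the interaction test, all negative, and 2 were lower in the Eif2s3y-low set (list median -0.08). Over all genes 0.713% were negative in that test. The list was drawn up after the falls in the Eif2s3y-high set were seen, a choice that favours this count.

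Of the 5 expansion genes 2 passed the interaction test, and so did leptin. Mest stood at 0.85 ± 0.12 in the Eif2s3y-high set and at -0.14 ± 0.14 in the other (interaction 0.99 ± 0.19; adjusted p = 0.000471), and Npr3 at 0.62 and 0.15 (interaction 0.47 ± 0.13; adjusted p = 0.0389). Lep was 0.47 ± 0.10 higher in the Eif2s3y-high set and -0.08 ± 0.09 in the Eif2s3y-low set, where its medians were 0.02 and 0.08 in the high and low group (interaction 0.55 ± 0.14; adjusted p = 0.0133). Of the 5 expansion genes limma called 0 in the Eif2s3y-low set (1 at an unadjusted p under 0.05; median -0.06). C1qtnf1, a secreted relative of adiponectin, and Cers4, a ceramide synthase, rose by 0.39 and 0.21 in the Eif2s3y-high set and stood at -0.08 and -0.07 in the other.

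A few mitochondrial and thermogenic genes went the other way, with the more positive difference in the Eif2s3y-low mice. Idh3b, a subunit of isocitrate dehydrogenase, stood at 0.10 in the Eif2s3y-high set and 0.37 in the other (interaction adjusted p = 0.00272), and Pdha1, of the pyruvate dehydrogenase complex, at 0.04 and 0.38 (0.0243). The uncoupling protein gene Ucp1 was 0.75 higher in the Eif2s3y-low set and stood at -0.89, not past the threshold, in the Eif2s3y-high set (interaction adjusted p = 0.0241). Ppargc1b, a coactivator of mitochondrial genes, was at 0.06 and 0.53 (0.0488). The joint list of pyruvate entry and the citric acid cycle had 10 of 12 genes higher in the Eif2s3y-low set against 7 in the Eif2s3y-high set. Oxidative phosphorylation had 7 of 7 against 4. The difference between these counts was not tested.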

How the data were processed

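The deposited series matrix holds 1 value per probe and array, which was read as a log10 ratio. The authors' background correction and normalization are not given in the sources used here. Scale and direction are not stated: values were limited at -2 and 2, and over probes the mean fell with the variance at a slope of -1.81 (-1.15 expected for log10 and -0.35 for log2 of mouse over pool), so mouse over pool and base 10 were used, the base being the less certain. Multiplying by 3.32 turned them into log2 ratios. Medians of the 70 arrays lay between -0.01 and 0.13. Of 5460 pairs of kept arrays the lowest correlation was -0.05. No signal or background intensities were used, and the number of arrays limits the precision.

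Of 23387 probes, 23003 had a value on at least 90% of kept arrays and were tested; 4 Fasn and Acaca probes and 380 with gaps were left out. A gene was taken by its most variable probe with 1 symbol; of 13692 annotated probes 48 had several symbols, 12652 matched RefSeq, and 9695 were unnamed. The z-scores were taken over the kept arrays. The high and low groups were compared with limma 3.58.1 in R 4.3.3 (lmFit, eBayes, Benjamini-Hochberg over all probes) without covariates, and the interaction in one fit over both sets. The groups were formed from values of the same arrays. Both fits were tested on simulated data.

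Members and lists (34 lists, 336 of 508 genes measured) were chosen with earlier results of these data known. Genes to name were drawn from the 12 largest differences each way, 4 members of each list with the smallest p, all synthesis partners, Lep and Apoe, and the 6 smallest interaction p each way; other list members are named as examples. The series text gives 295 mice and the sample text 330. Python 3.11.15 with NumPy 2.4.6, pandas 2.3.3 and matplotlib 3.10.9 did the rest.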

Additional observations from a re-analysis of the deposited data

Results flagged for a closer look

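The difference between the high and low groups was itself different in the Eif2s3y-high and the Eif2s3y-low mice for 180 probes in the positive and 125 in the negative direction (limma interaction test; 323 and 273 with a continuous score), and these were singled out for that reason.

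The genes with the smallest interaction p, more negative in the Eif2s3y-high mice, were Tph1 (-1.25), Serpinb9b (-1.78), Tpsb2 (-0.98), Tpsab1 (-1.29), Mcpt4 (-1.05) and Blvrb (-0.43). Serpinb9b differed by -2.20 ± 0.27 (SE) in the Eif2s3y-high set and by -0.42 ± 0.12 in the Eif2s3y-low set, where its low group ran from -2.42 to 0.91 with a median of -1.21. Mcpt4 differed by -1.29 and -0.23. Blvrb, a biliverdin reductase, differed by -0.50 ± 0.07 and by -0.07 ± 0.04, and in the Eif2s3y-high set 27 of 35 low mice lay above every high mouse.

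More positive in the Eif2s3y-high mice were Daxx (0.48), C1qtnf1 (0.47), Cers4 (0.27), Mest (0.99), Phf8 (0.51) and Cyp2c23 (0.51). Daxx, a chaperone of a histone variant, was 0.33 ± 0.06 higher in the Eif2s3y-high set and lower in the other, at -0.15 ± 0.05. Cyp2c23, an epoxygenase of arachidonic acid, was 0.30 ± 0.08 higher in the Eif2s3y-high set and lower in the other, at -0.20 ± 0.06 (adjusted p = 0.00168 and 0.007). Phf8, a histone demethylase on the X chromosome, was 0.46 ± 0.06 higher and stood at -0.04 ± 0.07 in the Eif2s3y-low set.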

How the results depend on the processing

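The counts of probes called between the high and low groups stayed within 1.5 times of the main ones under every alternative tried but 1. With the macrophage score as a covariate they were 1980 higher and 1252 lower, and members called over all lists were 77 higher and 12 lower against 117 and 62. Of the 139 called named genes, that covariate left 71 with their direction and side of the threshold, left 56 with it but no longer past the threshold and turned 12: Elovl1 0.083, Dio2 0.11, Nnat -0.047, Il7r 0.23, Cd22 0.063, Birc5 0.079, Cdk1 0.017, Top2a 0.019, Ccnb2 0.039, Ahsg 0.16, Bhlhe40 0.029 and Egr2 0.028. The cause of each change was not tested. The other alternatives turned no called gene and took at most 10 below the threshold (sides by Fasn alone). They were array medians subtracted, no filter on missing values, the continuous score, the highest against the lowest 26 or 52 mice, either gene alone, scores over all arrays, mouse number as a block, and the arrays of lower Eif2s3y, of other-tissue transcripts or, added after the data were seen, without Acaca left out. The interaction gave 323 and 273 probes with a continuous score, and its 12 named genes passed under all 3 alternatives tried.

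Genes without a call changed sign as follows. With the macrophage covariate Mlx was 0.024, Scap -0.0085, Usf1 0.050, Usf2 0.070, Tkt 0.16, Msln -0.34 and Hbb-b1 -0.0018. By Fasn alone Mlx was 0.015, Usf2 0.0027, Msln -0.054, Lrrn4 -0.0023 and Cel -0.057, and by Acaca alone Lcn9 was 0.0071. Without arrays of lower Eif2s3y Krt19 was 0.0067, Cpb1 0.18, Cela2a 0.38 and Cuzd1 0.027, and without other-tissue arrays Msln was -0.24 and Cela2a 0.063. Array medians turned Lrrn4 to -0.0051, the continuous score Prss1 to -0.025 and Cel to -0.14, 26 mice a side Tnni2 to 0.033, and leaving out the array without Acaca Tnni2 to 0.015. No paired analysis was possible because all mice form 1 labelled group and each mouse gave 1 array. Fabp4, Lpl and Cd36 had a value on 25.7%, 27.6% and 19% of the kept arrays and were left out by the filter, fold sizes rest on the log10 reading, and no labelled sex, depot or date was available to the fits.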

Other observations

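Some body-clock and steroidogenic genes were called. Of 13 clock genes 5 were higher and 1 lower: the repressor Nr1d1 rose by 0.37 ± 0.11, the output factors Dbp and Tef by 0.20 and 0.12, Per3 by 0.10 and Clock by 0.08, while Bhlhe40 was lower (-0.37). With array medians subtracted 2 were higher, and Per3 was not among the calls. Arntl (-0.18), Per1 (-0.20) and Per2 (0.25) did not pass. Of 7 steroidogenic genes Cyp11a1 (-0.36 ± 0.08) and Cyp11b1 (-0.54 ± 0.15) were lower. Of 5 erythrocyte genes Rhd alone was called (-0.21), with Hbb-b1 at 0.22 and Alas2 at 0.34 not past the threshold. Mouse numbers had a median of 232 in the high and 237 in the low group.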
